A study of Mus musculus with 21 samples.

Results

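The regions described here are 1218 peaks of the histone mark H3K4me3 that were called in cycling C2C12 myoblasts and were missing after 2 days of differentiation. A member is a peak of the pooled cycling list that shares at least 1 bp with a peak in each of the 3 cycling replicate lists and with no peak in any of the 4 day 2 lists. Of the 23663 pooled peaks, 16233 were found in all 3 replicates, and the 1218 members are 7.50% of these. Without the replicate requirement, 28.7% of all pooled peaks were in no day 2 list. The members were thus chosen by the H3K4me3 peak calls, so their widths, their H3K4me3 fold enrichments and their absence at day 2 are descriptions and were not tested.

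C2C12 is an immortalised mouse myoblast line, and all libraries came from it. Cycling cells were grown in 20% FBS and were frozen without fixation in 10% DMSO before CUT&RUN, with 3 replicates each for H3K4me3 and PSME3. Day 2 cells were switched to 2% horse serum at confluence and collected 48 h later, with 1 library per antibody in each of 4 preparations. These were fresh or frozen cells, either native or crosslinked with 0.1% formaldehyde for 5 min. Only the frozen native preparation matches the handling of the cycling cells, and the differentiation stage and any other difference between the cycling and day 2 libraries cannot be told apart.

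H3K4me3 is laid down around the starts of active and poised genes by SET1 and MLL methyltransferase complexes, is broadest at CpG-rich promoters and occurs in narrower, weaker patches at enhancers. When myoblasts leave the cell cycle they begin to fuse and to express contractile genes under myogenic transcription factors such as MyoD and myogenin. PSME3, also called PA28gamma or REGgamma, is a nuclear activator of the proteasome core particle, and it was mapped in the same cycling cells with its own antibody. CUT&RUN releases and sequences the DNA beside an antibody-bound protein, and in such bulk libraries fewer cells carrying a mark and less of the mark per cell cannot be told apart.

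The promoter sequences of 6 member genes differ in base composition, from the CpG-poor starts of Havcr2 and Selp to the CpG-rich start of Efr3b. Each window is the RefSeq sequence in GRCm38.p6 from 250 bases before to 50 bases after a transcription start that lies under a member, written 5′ to 3′ along the gene, and capitals mark each CpG.
Ptprn, chr1:75264159-75264458, minus strand: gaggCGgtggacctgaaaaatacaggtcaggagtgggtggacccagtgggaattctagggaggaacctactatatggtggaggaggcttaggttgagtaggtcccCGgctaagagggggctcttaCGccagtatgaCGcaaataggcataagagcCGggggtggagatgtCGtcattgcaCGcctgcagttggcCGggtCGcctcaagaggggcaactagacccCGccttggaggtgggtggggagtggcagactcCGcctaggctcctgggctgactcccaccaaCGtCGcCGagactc
Havcr2, chr11:46454681-46454980, plus strand: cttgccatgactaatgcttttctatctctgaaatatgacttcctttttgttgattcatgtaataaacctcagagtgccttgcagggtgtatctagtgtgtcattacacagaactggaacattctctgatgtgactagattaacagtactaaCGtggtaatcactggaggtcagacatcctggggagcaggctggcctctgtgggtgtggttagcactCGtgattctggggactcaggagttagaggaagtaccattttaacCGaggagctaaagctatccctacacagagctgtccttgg
Selp, chr1:164115014-164115313, plus strand: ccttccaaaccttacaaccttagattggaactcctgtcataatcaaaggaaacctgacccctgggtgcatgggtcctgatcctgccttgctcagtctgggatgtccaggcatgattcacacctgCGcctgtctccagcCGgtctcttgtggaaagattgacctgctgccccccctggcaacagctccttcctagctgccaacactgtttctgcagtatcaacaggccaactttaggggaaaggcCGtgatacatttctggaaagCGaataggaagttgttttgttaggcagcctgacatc
Efr3b, chr12:4038866-4039165, minus strand: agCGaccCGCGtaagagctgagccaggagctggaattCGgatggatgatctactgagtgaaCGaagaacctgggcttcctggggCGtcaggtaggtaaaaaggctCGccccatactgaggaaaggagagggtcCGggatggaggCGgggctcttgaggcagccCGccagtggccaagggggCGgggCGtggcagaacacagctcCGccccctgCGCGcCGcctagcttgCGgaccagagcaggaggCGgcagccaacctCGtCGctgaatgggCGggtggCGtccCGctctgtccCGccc
Cck, chr9:121495645-121495944, minus strand: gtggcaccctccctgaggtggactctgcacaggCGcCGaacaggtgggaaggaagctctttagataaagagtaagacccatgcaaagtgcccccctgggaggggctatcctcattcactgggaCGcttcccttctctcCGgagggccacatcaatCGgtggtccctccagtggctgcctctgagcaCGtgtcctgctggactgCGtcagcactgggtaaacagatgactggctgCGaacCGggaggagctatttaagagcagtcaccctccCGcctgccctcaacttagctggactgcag
Foxd1, chr13:98353995-98354294, plus strand: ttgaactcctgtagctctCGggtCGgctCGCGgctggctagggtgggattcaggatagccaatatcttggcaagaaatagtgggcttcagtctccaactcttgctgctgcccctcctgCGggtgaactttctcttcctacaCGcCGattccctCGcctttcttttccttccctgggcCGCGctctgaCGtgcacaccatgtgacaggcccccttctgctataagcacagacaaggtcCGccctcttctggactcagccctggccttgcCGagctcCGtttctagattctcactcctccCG
These 300-base windows held 14 CpG in Ptprn, 3 in Havcr2, 4 in Selp, 24 in Efr3b, 10 in Cck and 15 in Foxd1. Over the 125 protein-coding windows whose start lay under a missing peak, which belong to 116 genes, the median was 19 CpG and the median GC content 63.7%. Windows under peaks found in all 4 day 2 lists, called kept below, had a median of 22 CpG and 62.3% GC, and protein-coding windows under no pooled cycling peak had a median of 4 CpG and 49% GC. By CpG content, promoters under missing peaks thus lay much nearer to kept promoters than to unmarked ones, although an observed-to-expected CpG ratio of at least 0.6 was reached by 68% of them and by 80.0% of the kept ones. Protein-coding windows under peaks found in 1 to 3 day 2 lists, called partly kept below, were lower than the missing ones. They had a median of 17 CpG and 61.7% GC, and 55.3% of them reached that ratio.

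Short motifs were searched on both strands of the same windows. The GC box GGGCGG, bound by Sp1-type factors, occurred in 88 of the 125 windows (70.4%). It occurred in 69.3% of kept promoters, 63.8% of partly kept ones, 20.1% of promoters under no peak and 46.2% of all protein-coding promoters. The AP-1 motif TGANTCA occurred in 14 windows (11.2%), against 4.12% of kept promoters, 6.72% of partly kept ones, 9.94% of promoters under no peak and 6.99% of all. Havcr2 and Selp are among the windows with this motif. The CCAAT box was found in 26.4% of windows under missing peaks, 31.7% of partly kept and 38.7% of kept ones, against 38.2% of all. The E-box CAGCTG, which MyoD can bind, was found in 14.4%, 18.2% and 14.0%, against 15.6% of all. In the same order, TATAAA occurred in 7.2%, 7.81% and 6.07% (12.6% of all) and GGAATG in 9.6%, 15.6% and 11.1% (13.6% of all). CACGTG occurred in 8.8%, 7.16% and 10.6% (7.84% of all). These shares describe the letters in the windows and were not tested.

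Missing peaks were narrow and weak in the cycling cells themselves. Their median width in the pooled list was 894.5 bp, with quartiles of 673.25 and 1223.25 bp and a range of 222 to 4915 bp, beside 1179 bp for 3103 partly kept peaks and 2850 bp for 11912 kept peaks. Fold enrichment, the ratio of signal to the background that the peak caller estimated, had a median of 2.83 at missing peaks (range 1.81 to 12.2), 3.32 at partly kept peaks and 13.8 at kept peaks. In each replicate list the members ran below the kept peaks: their median fold enrichment was 3.61 in replicate 1, 2.90 in replicate 2 and 3.18 in replicate 3 (mean 3.23 ± 0.357, SD, n = 3), and that of kept peaks 16.2, 9.41 and 20.5 (15.4 ± 5.61). The replicate peaks at members had median widths of 471, 764 and 580 bp, against 2363, 2784.5 and 2503.5 bp at kept peaks.

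Replicate 2 stood apart from the other cycling H3K4me3 libraries, with 40999 peaks of 662 bp median width, where replicates 1 and 3 had 18077 and 19365 peaks of 1781 and 1784 bp. The median member therefore lay at a percentile of 55.3 for fold enrichment within replicate 2, but of 14.6 and 18.6 within replicates 1 and 3. Without replicate 2, the rule found 1392 missing peaks, and without replicate 1 it found 2372. The day 2 H3K4me3 lists held 14372 to 20245 peaks. The lists carry no numbers of reads, so depth is unknown here. The classes of peaks were compared within a list, and differences between replicates in fold enrichment, with the SD over them, include the scale of each list.

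**Figure D1:**
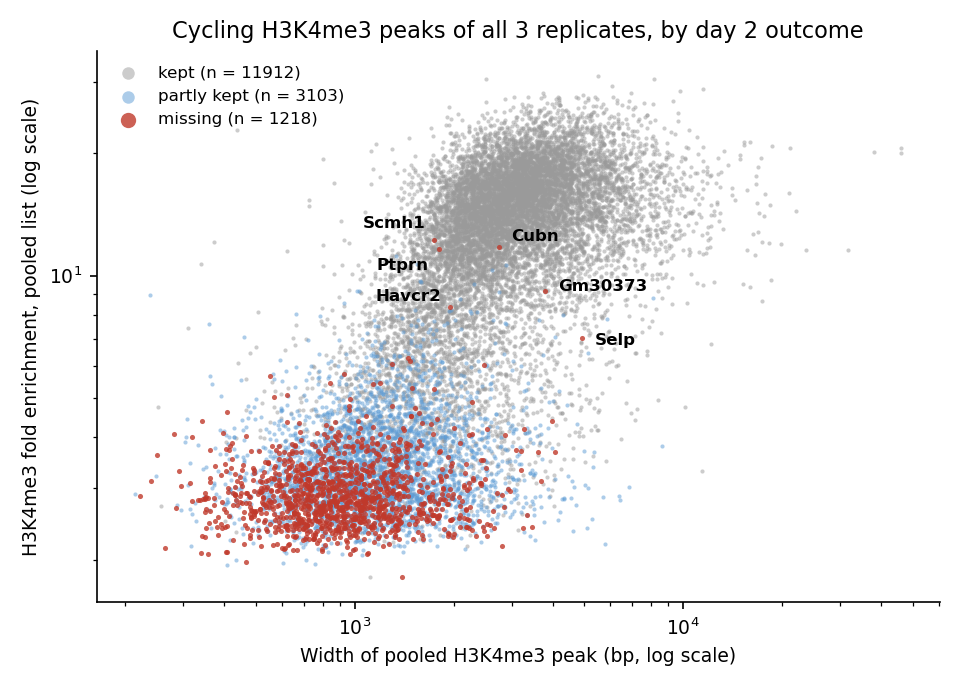
Each point is a cycling H3K4me3 peak found in all 3 replicates, placed by its width in bp (horizontal, log scale) and its fold enrichment (vertical, log scale) in the pooled list and coloured by day 2 class. The missing peaks gather at the narrow, weak corner (medians 894.5 bp and 2.83), and kept peaks extend to the wide, strong one (2850 bp and 13.8).

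The share of replicated peaks that went missing fell with each step of enrichment. Among peaks with a pooled fold enrichment under 2.5, 238 of 513 (46.4%) were missing, and between 2.5 and 3 the share was 37.6% (521 of 1385). It was 20.3% (391 of 1924) between 3 and 4, 5.03% (49 of 974) between 4 and 5, and 0.642% (16 of 2492) between 5 and 10. Of the 8945 peaks with a fold enrichment of 10 or more, 3 were missing (0.0335%), and these are the peaks in Scmh1, Cubn and Ptprn. By width, the share ran from 48.5% (115 of 237) under 500 bp through 33.4% (610 of 1824) and 9.89% (423 of 4278) in the next classes to 0.707% (70 of 9894) at 2000 bp and wider.

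**Figure D2:**
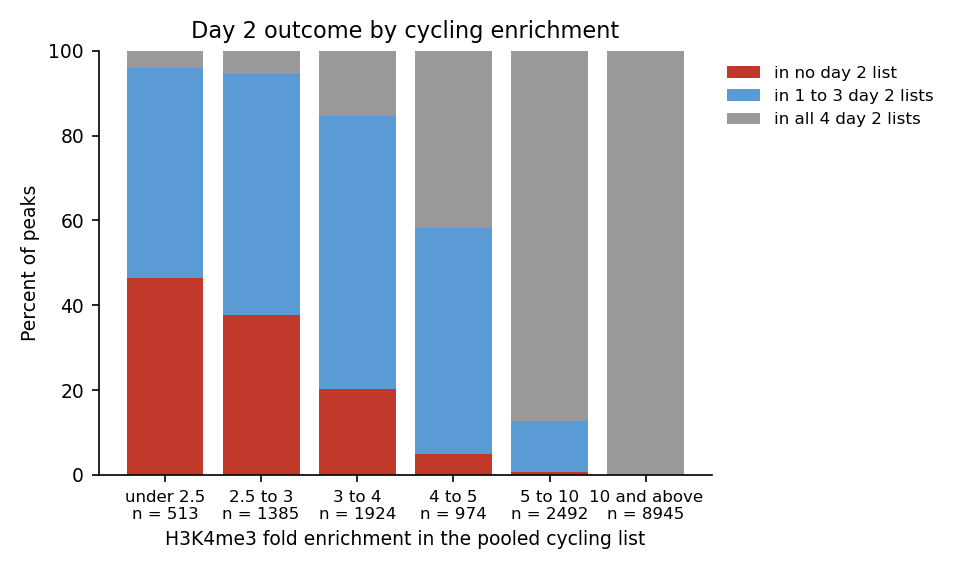
Bars give the percent of replicated cycling H3K4me3 peaks in each class of pooled fold enrichment that were missing, partly kept or kept at day 2. The missing share falls from 46.4% in the weakest class to 0.0335% in the strongest.

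The strongest missing peak lay inside Scmh1, a gene of the Polycomb repressive complex PRC1 (chr4:120517269-120519006, 1738 bp). Its fold enrichment was 12.2 in the pooled list and 14.8, 6.27 and 11.0 in replicates 1, 2 and 3. All 3 replicate peaks were nearly as wide as the pooled one (1683, 1603 and 1590 bp), and the nearest day 2 peak was 48815 to 49181 bp away in every preparation. The next lay inside Cubn, which encodes cubilin, the receptor for vitamin B12 bound to intrinsic factor (chr2:13480779-13483515). It had 11.8 in the pooled list and 14.3, 6.26 and 12.7 in the replicates. Its nearest day 2 peaks were 38607 to 60238 bp away. Neither of these peaks lay within 1 kb of a gene start or end, nor did it hold a pooled PSME3 peak.

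Ptprn encodes IA-2, a membrane protein of secretory granules in neuroendocrine cells, and its start was covered by the third strongest missing peak (chr1:75262749-75264556). The fold enrichment was 11.6 in the pooled list and 18.0, 8.47 and 13.5 in the replicates (13.3 ± 4.77, SD, n = 3), which in replicate 1 was above the median of kept peaks. The nearest day 2 peaks were 25232 and 24757 bp away in the fresh and frozen native lists, and 14190 and 14076 bp away in the crosslinked ones. Ptprn also had the highest PSME3 enrichment of any member, 4.33 in the pooled PSME3 list, with a PSME3 peak in replicates 1 and 3.

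Havcr2, which encodes the immune checkpoint receptor TIM-3, had a missing peak over its start (chr11:46454665-46456615) with a fold enrichment of 8.37 pooled and 11.5, 3.65 and 7.57 in the replicates. Selp, which encodes the adhesion receptor P-selectin, had the widest missing peak of all, 4915 bp over its start (chr1:164114477-164119391). Its fold enrichment was 7.01 pooled and 9.88, 3.88 and 6.70 in the replicates, with widths of 4229, 3128 and 4817 bp. Efr3b, a gene for a plasma membrane scaffold of a phosphatidylinositol kinase, had 6.27 pooled and 11.1, 3.93 and 7.72 in the replicates at its start (chr12:4038007-4039455). At these 3 genes replicate 1 gave the highest value and replicate 2 the lowest, as at every one of the 10 strongest members.

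The remaining strong members were not at protein-coding starts. The uncharacterised gene Gm30373 held a peak of 3797 bp (chr9:43944325-43948121) with a fold enrichment of 9.16 pooled and 12.3, 5.21 and 8.60 in the replicates. On chromosome 13, the tRNA genes n-TTcgt2 and n-TItat14, for threonine and isoleucine tRNAs, had 6.18 and 6.07, and the second of these peaks also covers Mir1983. The tenth strongest peak was outside genes (chr8:54439121-54441588), with 6.04 pooled and 8.75, 3.70 and 5.07 in the replicates. The plot of the 10 strongest missing peaks sets these values against the typical member and the typical kept peak of each replicate.

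**Figure D3:**
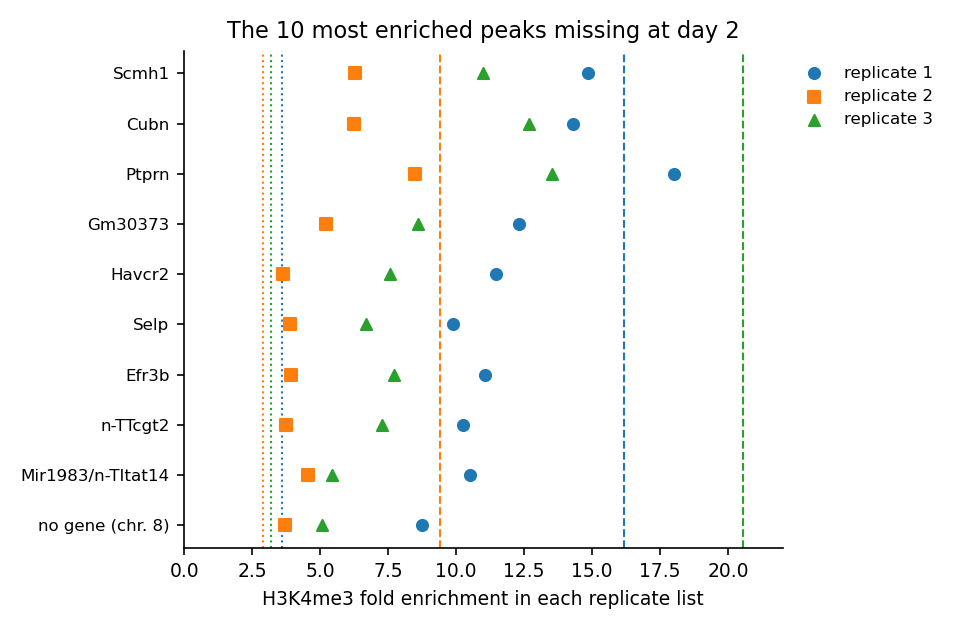
Points give the H3K4me3 fold enrichment of the 10 strongest missing peaks in each cycling replicate list, named by gene, and lines give that replicate's median over missing peaks (dotted) and over kept peaks (dashed). All points lie to the right of their replicate's dotted line, and only the Ptprn value of 18.0 in replicate 1 passes its dashed line, at 16.2.

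The 10 widest missing peaks ranged in strength from Gm30373 and Selp, with pooled fold enrichments of 9.16 and 7.01, to Oaf with 2.39. After Selp came Cck, the gene of the gut and brain peptide cholecystokinin (4056 bp), and Krt19, which encodes an epithelial keratin (3982 bp). Their pooled fold enrichments were 3.68 and 4.38, with replicate values of 4.49, 3.10 and 4.79 for Cck and 7.43, 3.57 and 5.58 for Krt19. The others were Gm30373, the autophagosome transport adaptor gene Fyco1 (3682 bp), a region outside genes on chromosome 2 (3605 bp), the annexin gene Anxa2 (3451 bp), the B7 family gene Cd276 (3337 bp), the acyl-CoA synthetase gene Acsbg1 (3273 bp) and Oaf (3258 bp). At Anxa2, the strongest overlapping peak of each replicate was only 374, 250 and 666 bp wide, and in replicate 2 it was 1 of 3 peaks under the pooled one. Of the 70 missing peaks of 2000 bp or wider, 13 were on chromosome 9, which held 81 of the 1218 members. That chromosome was singled out after the values were seen.

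Most missing peaks lay away from gene ends. Of the 1218, 300 (24.6%, 95% interval 22.2 to 27.2%) were within 1 kb of a gene start or end, 589 (48.4%) were inside a gene farther than 1 kb from its ends, and 329 (27.0%) were outside genes. Of all replicated peaks 69.3% were within 1 kb of a gene start or end, of partly kept peaks 30.3%, and of kept peaks 84.1%. Only 141 of 1170 members on chromosomes with a promoter table covered a listed transcription start (12.1%), against 501 of 3006 partly kept peaks (16.7%) and 8499 of 11574 kept peaks (73.4%). The intervals are Clopper-Pearson intervals and cover counting error only. Read from the side of location, 2.67% of replicated peaks near gene ends were missing, 17.2% of those inside genes and 21.0% of those outside.

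Members in the 3 locations were alike in strength. Those near gene ends had a median fold enrichment of 2.95 and a median width of 923 bp, those inside genes 2.81 and 925 bp, and those outside genes 2.79 and 839 bp. Kept peaks, in the same order, had 14.4, 9.35 and 5.92. Of the 501 members inside protein-coding genes, 338 (67.5%) lay in a gene that had a kept peak at its start or end, as did 870 of 1233 partly kept peaks (70.6%) and 681 of 1365 kept peaks (49.9%) inside such genes. Among all protein-coding genes, 49.6% had a kept peak there. The host genes of missing peaks had a median length of 112 kb, those of partly kept peaks 92.8 kb and those of kept peaks 76.0 kb. The median distance from a member to the nearest kept peak was 34764.5 bp, and 157 members (12.9%) were within 5 kb of one. For partly kept peaks the median was 24668 bp, with 497 (16.0%) within 5 kb.

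**Figure D4:**
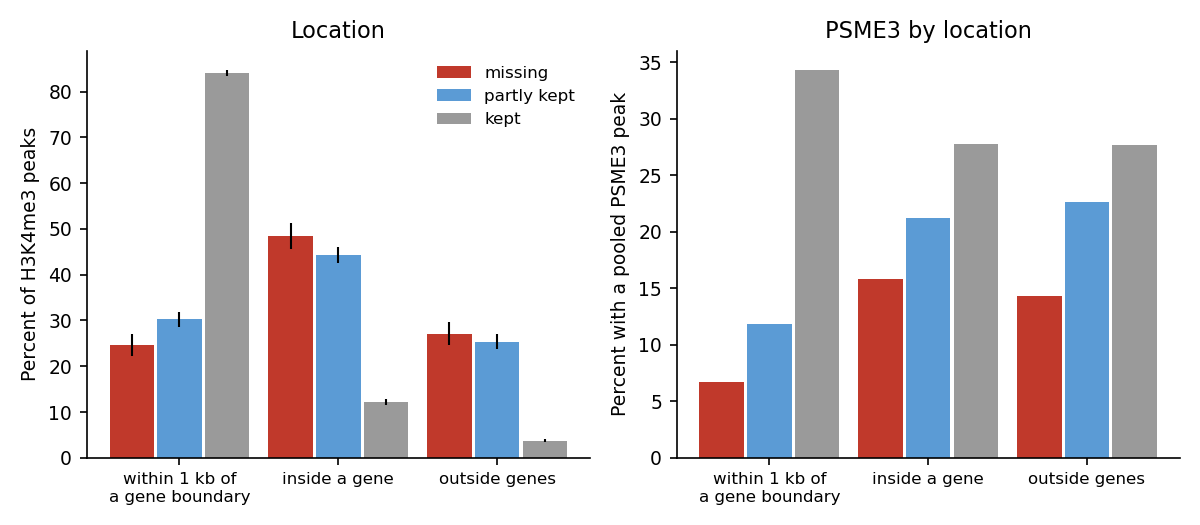
The left panel gives the percent of missing, partly kept and kept H3K4me3 peaks near a gene start or end, inside genes or outside genes, with 95% Clopper-Pearson intervals, and the right panel the percent of peaks in each location that held a pooled PSME3 peak. Missing peaks were near gene ends in 24.6% of cases and kept peaks in 84.1%, and the PSME3 share of missing peaks was lowest near gene ends (6.67%).

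At the gene level, 209 protein-coding genes (0.954% of 21900) had a missing peak within 1 kb of their start or end, and 188 of them had no other replicated peak there. After Ptprn, Havcr2, Selp and Efr3b, the strongest of these peaks, named here after their values were seen, were at Plekhg1 (pooled fold enrichment 5.43), Rap1gap, a GTPase activator for Rap1 (5.43), and Sema6d, a semaphorin guidance gene (5.27). Next came Npas3, a neuronal transcription factor gene (4.74), Crct1 (4.66), Phyhipl (4.58) and Sh3bgrl2 (4.52). The peaks at Rap1gap, Sema6d, Npas3, Phyhipl and Sh3bgrl2 covered a listed start. Rap1gap had 7.47, 3.56 and 5.64 in replicates 1, 2 and 3, and Sema6d had 7.37, 3.96 and 6.17. The nearest day 2 peak was 22515 bp from the Rap1gap peak and 517316 bp from the Sema6d peak.

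Of 319 genes in 13 lists that cover myogenesis, growth and other functions, 3 had a missing peak within 1 kb of their start or end (0.940%), close to the 0.954% of all protein-coding genes. None of 24 S phase genes, 22 mitosis genes, 24 immediate early genes, 15 inhibitors of differentiation, 27 growth factor receptors, 36 matrix and adhesion genes, 30 sarcomere genes or 16 housekeeping genes had one, which at 0.954% of all genes is under 1 gene for each of these lists. Kept peaks were found at 23 of the S phase genes, all 22 mitosis genes, 22 immediate early genes, 13 inhibitors, 25 receptors, 34 matrix genes and 15 housekeeping genes, and at 6 of the 30 sarcomere genes, of which 10 had any pooled cycling peak. Over all protein-coding genes 49.6% had a kept peak and 55.3% any pooled cycling peak. One gene in each of 3 other lists had a missing peak: Meox2 among 16 myogenic regulators (8 with a kept peak), Ccl2 among 34 growth factors and cytokines (20 kept) and Foxd1 among 64 developmental transcription factors (25 kept).

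Meox2 is a homeobox gene of the somite and limb muscle. Its peak (chr12:37108601-37109670) had a fold enrichment of 2.75 pooled and 3.70, 2.69 and 2.92 in the replicates, with no day 2 peak nearer than 726035 bp in any preparation. Ccl2, a monocyte chemokine gene (chr11:82034796-82036095), had 3.09 pooled and 4.24, 2.79 and 3.53, and Foxd1, a forkhead gene of kidney stroma (chr13:98354075-98355305), had 3.06 pooled and 5.20, 2.66 and 3.45. All 3 sit close to the typical member in strength, and none held a pooled PSME3 peak. For Ccl2 the nearest day 2 peak was 9692 and 9854 bp away in the crosslinked preparations, but 727558 and 727275 bp away in the fresh and frozen native ones. All 8 myoblast markers examined, among them Myod1, Myf5 and Des, had a cycling peak that was kept in the 4 day 2 lists, and of 9 markers of other cell types only Sftpc had a pooled cycling peak.

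Annotated genes of other kinds also lay beside missing peaks. A missing peak lay within 1 kb of 107 of 12727 lncRNA genes (0.841%), 4 of 1228 miRNA genes (0.326%), 1 of 1004 snRNA genes (0.0996%) and 0 of 1340 snoRNA genes, beside the 0.954% of protein-coding genes. Of 430 tRNA genes, 23 (5.35%) had one, in 15 peaks, and 14 of these genes, in 9 peaks, lay on chromosome 13 between positions 21240339 and 23270985. That chromosome holds 105 of the 430 tRNA genes, and 71 of the 105 were near a kept peak. tRNA genes are transcribed by RNA polymerase III and stand in dense clusters there. Of the 140 replicated peaks near a tRNA gene, 15 were missing (10.7%) and 114 kept. The share missing was 7.50% over all replicated peaks and 2.67% over those within 1 kb of any gene start or end. Of the 69 near a tRNA gene but no protein-coding or lncRNA gene, 13 were missing (18.8%). The 15 missing peaks near a tRNA gene had fold enrichments of 2.62 to 6.18 (median 3.73). Of these, 0 of 15 held a pooled PSME3 peak, where 27 of 114 kept ones did. With no protein-coding or lncRNA gene near, 0 of 13 missing and 4 of 48 kept ones did. These counts were made after the values were seen, and tRNA genes have near-identical copies between which reads could have been split.

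The absence at day 2 was seldom a matter of a few base pairs. The nearest peak in any day 2 H3K4me3 list was a median of 19020.5 bp from a member, 18 members had one within 200 bp, 40 (3.28%) within 1 kb and 280 (23.0%) within 5 kb, and 134 had none within 100 kb. The peaks at the edge of the rule are named for their distances. Just inside it were peaks at Med13l (chr5:118606256-118607005), 5 bp from a day 2 peak (fold enrichment 2.61), at Usp20, 25 bp away (3.19), and at Adgrg3, 28 bp away (2.72). Just outside it were peaks at Dnm1, with an overlap of 15 bp (2.43), at Zhx2, with 20 bp (1.97), at Gm30706, with 22 bp (3.35), and at Fbxl2, with 28 bp (2.67), each in 1 day 2 list. Of the replicated peaks that did overlap, 6 did so by at most 50 bp and 14 by at most 100 bp.

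The number of peaks called missing depended on how many day 2 lists were asked. Taken alone, the fresh native list lacked 4195 of the 16233 replicated peaks (25.8%), the frozen native list 2290 (14.1%), the fresh crosslinked list 2072 (12.8%) and the frozen crosslinked list 1860 (11.5%). The frozen native list, the only one prepared like the cycling cells, thus lacked 2290 peaks, of which the other preparations left 1218.

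PSME3 was not used to choose the members. In the pooled cycling PSME3 list, 160 of the 1218 missing peaks held a PSME3 peak (13.1%, 95% interval 11.3 to 15.2%), against 18.7% of partly kept peaks, 33.3% of kept peaks and 29.0% of all replicated peaks. In the replicate lists the share of missing peaks with PSME3 was 3.53, 0.821 and 4.27% in replicates 1, 2 and 3 (2.87 ± 1.82%, SD, n = 3), and that of kept peaks 6.21, 5.22 and 20.7% (10.7 ± 8.67%). The share was higher at kept peaks in 3 of 3 replicates, by 2.68, 4.40 and 16.4 percentage points. The mean difference of 7.84 ± 7.50 percentage points (SD, n = 3) had p = 0.25 in a two-sided exact sign-flip permutation test, which is the smallest p that 3 replicates allow. Replicate 3, with 3070 PSME3 peaks against 1200 and 776, gave most of it, and without that library the mean difference was 3.54 percentage points.

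The PSME3 shares are also given within classes of like H3K4me3 width, with intervals for counting error only. At 500 to under 1000 bp the pooled PSME3 list marked 11.6% of missing (95% interval 9.20 to 14.5%) and 11.9% of kept peaks (8.02 to 16.9%), and at 1000 to under 2000 bp it marked 16.5% (13.1 to 20.4%) and 17.6% (16.1 to 19.3%). Of partly kept peaks it marked 10.0% (8.22 to 12.1%) and 21.3% (19.3 to 23.4%) in these classes, below both others in the first and above both in the second. Under 500 bp the list marked 5.22% of 115 missing peaks, 6.48% of 108 partly kept and 0 of 14 kept ones. At 2000 bp and wider it marked 18.6% of 70 missing peaks (95% interval 10.3 to 29.7%), 32.5% of partly kept and 37.6% of kept peaks (36.6 to 38.6%). In the PSME3 replicates this widest class had 7.14, 0 and 7.14% of missing and 7.20, 6.09 and 24.0% of kept peaks, so that replicate 1 showed almost no difference. Weighted by the widths of the missing peaks, the difference between kept and missing peaks in the PSME3 replicates was -1.94, 1.32 and 1.79 percentage points, a mean of 0.391 (SD 2.03, n = 3) with p = 1 in the same exact test.

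**Figure D5:**
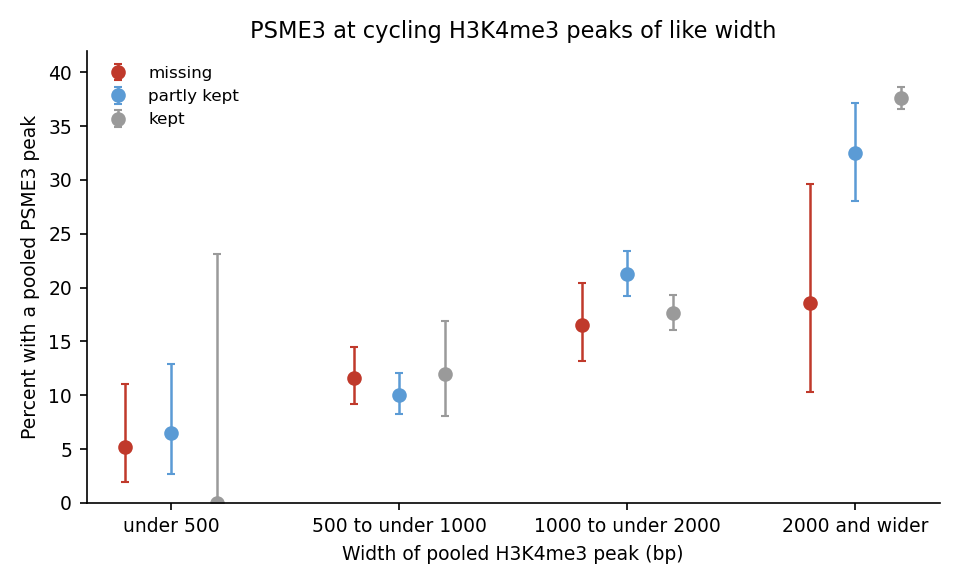
Points give the percent of missing, partly kept and kept H3K4me3 peaks that held a pooled PSME3 peak in 4 classes of H3K4me3 width (bp), with 95% Clopper-Pearson intervals. The shares of missing and kept peaks are 11.6% and 11.9% at 500 to under 1000 bp and 18.6% and 37.6% at 2000 bp and wider.

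Where a missing peak held PSME3, the PSME3 peak was narrower than at kept peaks and slightly narrower than at partly kept ones, with nearly the same median enrichment. Its median fold enrichment was 2.93 at the 160 members and 2.94 at kept peaks, while the highest was 4.33 at members and 20.1 at kept peaks. They spanned 356.5 bp at the median member, 379 bp at partly kept and 472 bp at kept peaks. Their centres lay a median of 122.5, 192.5 and 494.5 bp from the centre of H3K4me3 peaks that were themselves 1017.5, 1456 and 3355 bp wide. The PSME3 peak lay fully inside the H3K4me3 peak at 135 members (84.4%), at 93.5% of partly kept and at 99.7% of kept peaks. Few of these calls recurred: of the 160, 98 had no peak in any PSME3 replicate list, 49 had one in 1 replicate, 12 in 2 and 1 in all 3. The share found in 2 or more replicates was 8.13%, against 9.12% of the partly kept and 18.2% of the kept peaks with pooled PSME3.

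PSME3 at missing peaks was found mostly away from gene ends. Near gene ends 20 of 300 members held a pooled PSME3 peak (6.67%), and elsewhere 140 of 918 did (15.3%), whereas kept peaks held it more often near gene ends (34.3%) than away from them (27.8%). Partly kept peaks ran like the missing ones, with 11.8% near gene ends, 21.2% inside genes and 22.6% outside. These shares were not compared at like width. In the same order of location, kept peaks had median widths of 2966, 2334 and 1518 bp, and members 923, 925 and 839 bp. In the PSME3 replicates the share of members was 1.0, 0.333 and 2.33% near gene ends and 4.36, 0.980 and 4.90% elsewhere. The difference was positive in 3 of 3 replicates and averaged 2.19 ± 1.39 percentage points (SD), with p = 0.25, again the smallest that the two-sided exact sign-flip test on 3 replicates allows. This comparison was added after the data were seen. Members with pooled PSME3 were somewhat wider than those without (1017.5 and 877.5 bp) with median H3K4me3 fold enrichments of 2.81 and 2.84.

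After Ptprn, the members with the highest PSME3 enrichment were at Snx2, a sorting nexin gene (4.19), and in a region outside genes (chr16:31597513-31599364) with 4.12, which was the member with PSME3 peaks in replicates 1, 2 and 3. Il1rl1, which encodes the interleukin-33 receptor ST2, had 4.04, a second region outside genes (chr3:103682291-103684182) 4.02, and the chemokine gene Ccl8 3.91. Med13l, a gene of the Mediator kinase module, had 3.89 at a peak (chr5:118612878-118613851) other than the one 5 bp from a day 2 peak. The prostaglandin transporter gene Slco2a1 had 3.77, the deubiquitinase gene Usp20 3.63 and another region (chr10:95643873-95644460) 3.60. The Il1rl1 and Ccl8 peaks were in no PSME3 replicate list, and Usp20 was in those of replicates 1 and 2. Of these 10 members only those at Ptprn and Ccl8 were within 1 kb of a gene start or end.

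At day 2, PSME3 peaks were found at 0 of the 1218 missing peaks in each of the 4 preparations. At kept peaks there were 2 in either fresh list, 167 in the frozen native list and 58 in the list of frozen, crosslinked cells. The day 2 PSME3 lists held 18 to 186 peaks in all, so that at these low numbers a difference between missing and kept peaks was not tested.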

How the data were processed

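CUT&RUN was done in C2C12 cells. Of 21 libraries, 14 are described, and 7 with IgG were not analysed here. Reads were trimmed with Trim Galore and aligned to mm10 with Bowtie2, and peaks were called with MACS2, per library and, for cycling cells, on the 3 replicates in aggregate, as the study and the submitters' processing notes state. Versions, options and the control library are not given in the sources used here. The deposited broad peak lists give for each peak a fold enrichment, which is a ratio over the local background of the caller. The authors also deposited its -log10 p-value, not used here, and its -log10 q-value. Every q-value is under 0.1.

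Overlaps (at least 1 bp), distances, medians and shares were obtained with pandas 2.3.3, numpy 2.4.6 and scipy 1.17.1, run under Python 3.11.15. The functions were tested on simulated data. A replicate's value is that of its overlapping peak with the highest fold enrichment. Intervals are exact binomial (Clopper-Pearson) at 95%. The test is a two-sided exact sign-flip permutation test over the 3 PSME3 replicates. The study calls the cycling replicates biological. The labels do not say whether they were separate cultures, and the p-value measures the spread between these libraries. Peaks are not replicates, so no test was run over peaks.

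Genes came from a RefSeq table of 49980 genes of GRCm38.p6, the assembly that mm10 names. It carries no strand, so a gene end here can be its start or its end. Transcription starts came from 32851 RefSeq promoter windows, which cover no chromosome 18.

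Genes were named by a rule, apart from those nearest to the day 2 overlap threshold and those said in the text to be chosen after their values were seen: the 10 members with the highest fold enrichment, the 10 widest, the 10 with the highest PSME3 fold enrichment, and members beside genes of 13 lists. Sequences are of the first 6 of these whose promoter window's start lies under the member. The members and the lists were chosen with earlier results of these data known. PSME3 and H3K4me3 libraries share replicate numbers. Over 19 autosomes, the deviations of their log2 peak shares from the replicate means had a Pearson r of 0.540, 0.555 and 0.275 for replicates 1, 2 and 3, so that the numbers were taken to pair the libraries. The r was 0.522 between PSME3 replicate 1 and H3K4me3 replicate 3 and 0.266 between PSME3 replicate 3 and H3K4me3 replicate 1, so the measure does not separate these numbers.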

Additional observations from a re-analysis of the deposited data

How the results depend on the processing

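The alternatives covered the number of missing peaks, their width, their fold enrichment, their share near gene ends, their pooled PSME3 share and its difference from kept peaks, and no other result. There were 14 alternatives for number, width and fold enrichment, 18 each for the share near gene ends and the pooled PSME3 share, and 19 for the PSME3 difference. The number was 477 when peaks of each replicate had to cover at least 50% of the pooled peak, 1956 with day 2 peaks at a q-value of at most 0.01, 2986 with at least 2 replicates, 2290 against the frozen native list alone and 1392 to 2372 without one cycling replicate. The median width fell to 725.5 bp with at least 2 replicates. The share near gene ends, 24.6%, was 32.1% with 50% overlap, 20.8% with at least 2 replicates, 19.7% to 25.9% without one cycling replicate, 35.1% within 3 kb, 16.3% for protein-coding genes, 21.8% by the peak centre and 17.3% by transcription starts. Kept peaks stood at 87.6%, 78.6%, 65.0% and 74.3% in the last 4 settings. The pooled PSME3 share was 16.9% against the frozen native list alone, 6.24% with PSME3 peaks at a q-value of at most 0.01, and 5.09% and 1.07% with PSME3 peaks in at least 1 or 2 replicates. The cause of these shifts was not tested.

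The median fold enrichment stayed between 2.56 and 3.09 in 14 alternatives. The mean difference in PSME3 share, 7.84 percentage points, nearly vanished when averaged over width classes (0.391, p = 1 in the exact sign-flip test, with replicate 1 at -1.94). In the other alternatives it was positive, at most 10.4, and 3.54 to 10.4 without one PSME3 replicate. With the replicate block, in which H3K4me3 peaks were taken from the library of the same number, it was 7.63 percentage points with p = 0.25 in the exact sign-flip test, the smallest p it can give on 3 replicates, so only the values can be compared. Without read numbers, an absent peak says that none was called at the depth of the day 2 libraries.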
